A study of Mus musculus with 6 samples.

Results

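DEAD-box and DEAH-box helicases were examined in fully-grown oocytes (FGOs) of the mouse at the germinal vesicle (GV) stage, and the members were all genes of the expression table whose symbol begins with Ddx or Dhx and a number. Ddx4 and Ddx6 were left out. The set held 52 of 24255 genes, 36 named Ddx and 16 named Dhx. The rule read gene names only. RNA-Seq libraries from wild type (WT) females were compared with those from Lsm14b-knockout (Lsm14b-KO) females, with 3 libraries per genotype and 20 oocytes in each. Lsm14b-KO females were homozygous for tm1a, a knockout-first allele of Lsm14b with an inserted reporter, which is carried in all cells of the animal and not only in oocytes. Both genotypes were kept on a C57BL/6J background, and all females received 5 IU of PMSG, a gonadotropin used to grow follicles, 46 h before collection. Neither the labels nor the study's methods give the age of these females, and neither says whether the libraries of a genotype came from separate animals, so p-values measure only the spread between these libraries.

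DEAD-box and DEAH-box proteins are helicases that use ATP to separate RNA strands or to strip proteins from RNA. Both names spell, in the one-letter amino acid code, the motif II residues with which the enzymes bind and cut ATP. They act at nearly every step in the life of an RNA, from transcription and splicing through nuclear export and translation to decay, and many build ribosomes in the nucleolus. A fully-grown oocyte is nearly silent in transcription and lives on stored mRNA, and LSM14B is an RNA-binding protein of stored messenger ribonucleoproteins.

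The motif II codons were read from coding sequences of the GENCODE vM21 annotation (GRCm38, the assembly also called mm10). A box was accepted as GAT or GAC, then GAA or GAG, then any codon, then GAT, GAC, CAT or CAC, within a window of 40 codons that opens 85 codons beyond those for the ATP-binding loop. It was found in 47 of the 52 members (90.4%), against 0.53% of 20390 other coding genes, and not in Ddx1, Ddx11, Ddx24, Ddx26b and Dhx32. The search did not look outside this window, so these members were not shown to lack the motif. Ddx26b is named Ints6l in this annotation, so only its symbol in the expression table places it among the helicases. The last codon separated both name groups almost fully. Both names spell this motif, so this split and the high share of boxes follow the naming and test nothing. Of the 32 Ddx members with a box, 30 ended in GAT or GAC, whereas all 15 such Dhx members ended in CAT or CAC. Both Ddx exceptions were RNA sensors or relatives of them, Ddx58 and Ddx60. The 30 coding bases around the box are printed for 8 members that carry the comparisons given further on, with the 4 box codons in capitals. They include the 2 members past the test threshold (Ddx5 and Dhx57), the abundant Ddx3x, and a pair that these bases cannot tell apart (Ddx19a and Ddx19b).
Ddx5: cttgtccttGATGAAGCTGATaggatgctt
Ddx50: gttgtgcttGATGAAGTAGATcaaatgtta
Ddx3x: ctggtgttaGATGAAGCTGACcggatgtta
Ddx19a: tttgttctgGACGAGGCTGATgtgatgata
Ddx19b: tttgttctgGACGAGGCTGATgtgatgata
Ddx58: atgatatttGATGAGTGTCATaacactagc
Dhx15: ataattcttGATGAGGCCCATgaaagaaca
Dhx57: atcattgttGATGAAGTTCATgagaggaca

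The box of Ddx5 lay in exon 7 of 13 at chr11:106785193-106785204 on the minus strand, and that of Dhx57 in exon 8 of 23 at chr17:80267532-80267543, also on the minus strand. Ddx50 (exon 6 of 15, chr10:62640511-62640522, minus strand) and Dhx57 lack the GCN codon (any base as N) that gives the A of DEAD and DEAH. Among the 47 boxes, 24 had GCN with GAT or GAC last, 8 had GCN with CAT or CAC last, 6 had another codon with GAT or GAC last, and 9 had another codon with CAT or CAC last. Codons alone say nothing of activity.

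FPKM (fragments scaled to the kilobases of a transcript and the mapped fragments of a library) takes account of transcript length, so levels can be set side by side between genes. Depth was known only in relative terms, from how far apart the smallest values of each library lay, and any rescaling between libraries would enter it. With the shallowest library as 1, it ranged up to 1.14 over WT and stood at 1.33, 1.95 and 2.17 in Lsm14b-KO replicates 1, 2 and 3, and the precision of low values follows it. The FPKM of all genes summed to 1141324 to 1244182 in WT and to 564671 to 1029728 in Lsm14b-KO libraries. Lsm14b stood at 2.77, 3.98 and 1.72 FPKM in WT, while the Lsm14b-KO libraries listed it at 0, 0 and 0.102 FPKM (adjusted p = 0.0038 in limma), as the labels say. All 12 oocyte markers listed for this check passed the minimum for testing, whereas all 5 red blood cell markers were at 0. Of 12 cumulus and granulosa cell markers, 3 passed that minimum, with Cyp19a1 the highest by mean, and Amh, Foxl2, Inhba and Wt1 were at 0. The sum of these 12 markers was 9.73 to 13.5 FPKM in WT and 6.13 to 10.2 FPKM in Lsm14b-KO libraries. Lsm14b-KO replicate 1 stood apart: of the 3 Lsm14b-KO libraries it lay nearest to the WT mean for 57.0% of all tested genes, so values without it are given where they change a result.

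Most helicase genes were detected, but few were abundant. Of the 52 members, 33 (63.5%) were above 0 in all 6 libraries, compared with 32.3% of all genes. At 0 in every library were 5 members (9.62%), compared with 40.9% of all genes, namely Ddx23, Ddx3y, Ddx26b, Dhx34 and Dhx37. Ddx3y lies on the Y chromosome and the oocytes came from females, and an exact 0 for the others can also be a failed estimate. Only 15 members (28.8%) reached 1 FPKM in at least 1 library, the minimum for testing, near the 26.4% of all genes. Just outside that minimum were Ddx39b and Dhx40, with highest values of 0.997 and 0.954 FPKM, and just inside were Ddx10 and Dhx15, with 1.22 and 1.43 FPKM.

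**Figure D1:**
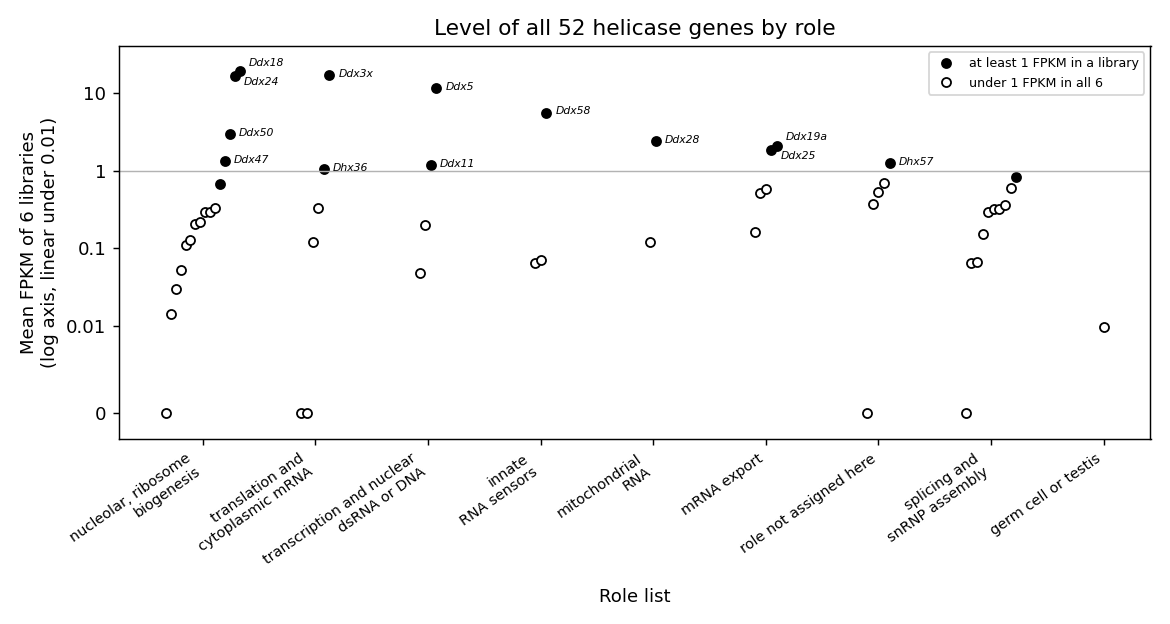
Mean FPKM of the 6 libraries (log axis, linear under 0.01) for each of the 52 helicase genes, grouped by role list, with filled points for genes that reached 1 FPKM in a library and open points for the others. Ddx18, Ddx3x, Ddx24 and Ddx5 lie above 10 FPKM, and the 5 genes listed at 0 in every library lie at the bottom.

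In WT libraries the members together held 91.2 ± 3.81 FPKM (SD, n = 3), and the Lsm14b-KO libraries had 93.5 ± 7.60 FPKM (SD, n = 3), a difference smaller than the spread. Their share of the summed FPKM was 0.00769%, 0.00759% and 0.00780% in the WT group, in order of replicate. In the Lsm14b-KO group it reached 0.00840%, 0.0164% and 0.0150%, where the total FPKM was lower. The 4 highest members of each library held 63.3% to 72.0% of the members' FPKM. They were Ddx18, Ddx3x, Ddx24 and Ddx5 except in WT replicates 1 and 3. There Ddx58 (8.10 and 7.30 FPKM) stood above Ddx5 (6.56 and 7.20 FPKM). Over all 6 libraries the mean levels were 18.8 FPKM for Ddx18, 16.7 FPKM for Ddx3x and 16.5 FPKM for Ddx24, an order that was not tested. Ddx5 (11.5 FPKM) differed between the genotypes. Ddx58 followed with 5.56 FPKM, and then Ddx50 (2.94 FPKM), Ddx28 (2.42 FPKM) and Ddx19a (2.09 FPKM). No Dhx member was among these 8, and the highest of them, Dhx57, had a mean of 1.25 FPKM.

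The genotypes were then compared gene by gene with limma on log2(FPKM + 1), with p-values adjusted by the Benjamini-Hochberg method over all 6398 tested genes. All fold changes here are Lsm14b-KO minus WT on this scale, which understates the changes of genes with low values. Of the 15 tested helicase genes, 2 (13.3%) had an adjusted p under 0.05: Ddx5 was higher and Dhx57 was lower in Lsm14b-KO FGOs. Across all tested genes 21.6% passed, 6.38% higher and 15.2% lower, so the helicases' count was not above the background. At an unadjusted p under 0.05 there were 5 of the 15, against 39.4% of all tested genes. The genotypes did not overlap in 9 of the 15 (6 higher and 3 lower in Lsm14b-KO), against 45.0% of all tested genes (19.1% higher and 26.0% lower). The median log2 fold change was 0.35 over the 15 and -0.08 over all tested genes, and 10 of the 15 were fitted higher. FPKM is relative to all RNA of a library, so fewer copies per oocyte and more of other RNAs cannot be told apart.

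**Figure D2:**
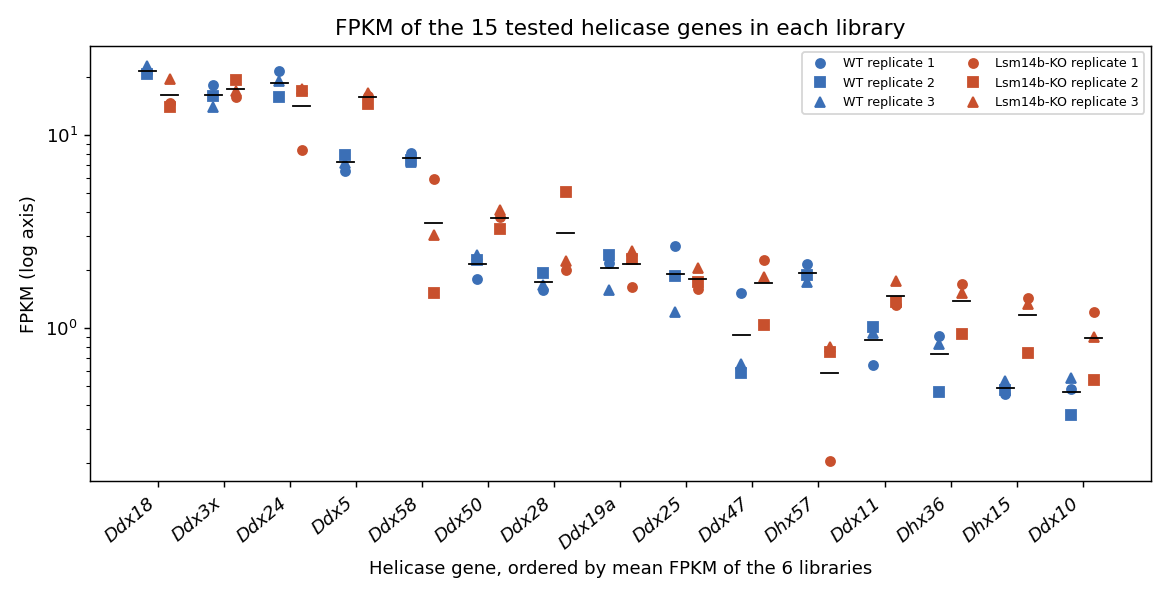
FPKM (log axis) of the 15 tested helicase genes in each of the 6 libraries, WT in blue and Lsm14b-KO in orange, with replicate 1 as circles, 2 as squares and 3 as triangles, and short bars at the group means. Ddx5 lies at 6.56 to 7.92 FPKM in WT and at 14.6 to 16.6 FPKM in Lsm14b-KO libraries, whereas for Ddx3x the groups overlap.

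Of the helicases with nuclear roles in transcription and genome maintenance, 2 of 4 were tested. Ddx5 (chr11:106780355-106789185, minus strand) encodes a coregulator of transcription and splicing that also takes part in microRNA processing. Its level was 6.56, 7.92 and 7.20 FPKM in WT and 16.0, 14.6 and 16.6 FPKM in Lsm14b-KO libraries. Every Lsm14b-KO library was above every WT library, by a margin far wider than the spread within either group. The ratio of the means was 2.17, with a log2 fold change of 1.02 (SE 0.22, 95% interval 0.52 to 1.53, adjusted p = 0.0181 in limma). Leaving out Lsm14b-KO replicate 1 gave 1.01 (adjusted p = 0.00604 in limma), but the call was lost without any 1 of the WT libraries or without Lsm14b-KO replicate 3 (adjusted p = 0.0703 to 0.0925 in limma). Ddx5 has 1 near-identical copy in the annotation, Gm12183, which could share its reads. Its paralog Ddx17 was far lower, at 0.0663, 0.232 and 0.163 FPKM in WT and 0.253, 0.287 and 0.205 FPKM in Lsm14b-KO libraries, and was not tested. Ddx11, a DNA helicase of sister chromatid cohesion, was fitted 0.41 higher on the log2 scale (adjusted p = 0.153 in limma), and its groups did not overlap.

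Dhx57 (chr17:80238309-80290476, minus strand), a DEAH-box member to which no role was assigned here, changed the other way. It had 2.16, 1.89 and 1.73 FPKM in WT and 0.203, 0.747 and 0.795 FPKM in Lsm14b-KO libraries. All Lsm14b-KO values were below 1 FPKM and all WT values were above it, with Lsm14b-KO replicate 1 the lowest. The WT mean was 3.31 times the Lsm14b-KO mean, and the log2 fold change was -0.91 (SE 0.22, 95% interval -1.42 to -0.40, adjusted p = 0.0269 in limma). The change was smaller, -0.72, without Lsm14b-KO replicate 1 (adjusted p = 0.0194 in limma), and it missed the threshold without any 1 WT library or without Lsm14b-KO replicate 3 (adjusted p = 0.0720 to 0.0999 in limma). Under TPM scaling, described further on, it was -0.52 (adjusted p = 0.211 in limma). Dhx57 overlaps Morn2 on the opposite strand, and whether the libraries kept strand is not given in the sources used here, so reads of both cannot be told apart. Morn2 itself had 1.35, 0.574 and 0.633 FPKM in WT and 0.490, 0 and 0.894 FPKM in Lsm14b-KO libraries, groups that overlapped. Ddx59, Dhx32 and Dhx40, which also had no assigned role, were under 1 FPKM throughout.

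The nucleolar helicases, which help to process and fold ribosomal RNA, were the largest role list, with 16 members of which 5 were tested. In limma 0 of the 5 passed, beside 21.6% of all tested genes, and 1 (Ddx50) had an unadjusted p under 0.05, beside 39.4%. Ddx18 had 21.0, 20.7 and 22.9 FPKM in WT and 14.6, 14.0 and 19.5 FPKM in Lsm14b-KO libraries. The WT values all lay above the Lsm14b-KO values, narrowly so for Lsm14b-KO replicate 3, and the log2 fold change of -0.42 did not pass (95% interval -0.99 to 0.16, adjusted p = 0.242 in limma). It has 2 near-identical copies in the annotation, AC122481.1 and Gm16433, which could share its reads. Ddx24 had 21.5, 15.8 and 19.1 FPKM in WT and 8.39, 16.9 and 17.4 FPKM in Lsm14b-KO libraries. Its groups overlapped, with Lsm14b-KO replicate 1 alone far below the rest (log2 fold change -0.43, adjusted p = 0.345 in limma). Without that library the value was -0.11 (adjusted p = 0.672 in limma).

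Ddx50, the paralog of the nucleolar helicase Ddx21, was fitted in the other direction from Ddx18 and Ddx24. It had 1.79, 2.25 and 2.39 FPKM in WT and 3.79, 3.28 and 4.12 FPKM in Lsm14b-KO libraries. The groups were well apart, and the log2 fold change of 0.59 fell just short of the threshold (95% interval 0.14 to 1.04, adjusted p = 0.0627 in limma). It passed under 3 of the other ways of scaling. Ddx50 too has 1 near-identical copy, Gm8228. Ddx47 and Ddx10 had log2 fold changes of 0.51 and 0.35 (adjusted p = 0.192 and 0.243 in limma), with groups that overlapped. Ddx21 was listed at 0.224, 0.148 and 0 FPKM in WT and at 0.465, 0.461 and 0.492 FPKM in Lsm14b-KO libraries, which did not overlap, and was under the minimum for testing. It has 1 near-identical copy, Gm37197.

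Of the helicases of translation and cytoplasmic mRNA, Ddx3x (chrX:13280970-13294052, plus strand), which helps ribosomes start on structured mRNAs, had 18.2, 16.0 and 14.0 FPKM in WT and 15.7, 19.4 and 17.0 FPKM in Lsm14b-KO libraries. The groups overlapped throughout. The interval of its log2 fold change of 0.11 ran from -0.45 to 0.67 (adjusted p = 0.753 in limma). That interval holds for FPKM as deposited, since the value was 0.48 under quantile normalization and 0.77 under TPM scaling (adjusted p = 0.197 and 0.108 in limma). Dhx36, which unwinds G-quadruplexes in RNA and DNA, was fitted 0.45 higher on the log2 scale (adjusted p = 0.160 in limma), with groups that did not overlap. Ddx1 and Dhx29 were under 1 FPKM.

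Of the 5 mRNA export helicases, Ddx19a, which releases mRNA from its export proteins at the nuclear pore, had 2.18, 2.38 and 1.58 FPKM in WT and 1.64, 2.29 and 2.50 FPKM in Lsm14b-KO libraries. These overlapped, and the interval of the log2 fold change of 0.04 was -0.44 to 0.53 (adjusted p = 0.886 in limma). Under TPM scaling the value was 0.54 (adjusted p = 0.214 in limma). Ddx19b, which shares the box bases printed above, was listed far lower, with a mean of 0.162 FPKM. Ddx19a counts as a near-identical copy of Ddx19b in the annotation, so both could share reads. Ddx25, known from male germ cells, was also tested, with 1.92 ± 0.74 FPKM in WT against 1.79 ± 0.22 FPKM in Lsm14b-KO libraries (SD, n = 3 each). The log2 fold change stood at -0.03 (adjusted p = 0.921 in limma). Ddx39b, a subunit of the export complex that acts on spliced mRNA, had 0.182, 0.317 and 0.351 FPKM in WT and 0.815, 0.789 and 0.997 FPKM in Lsm14b-KO libraries, apart but just under the minimum.

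The innate RNA sensors were represented by Ddx58 (chr4:40203773-40239828, minus strand), which encodes RIG-I, a sensor of viral RNA ends. It had 8.10, 7.44 and 7.30 FPKM in WT and 5.95, 1.52 and 3.04 FPKM in Lsm14b-KO libraries. All Lsm14b-KO libraries were lower, but they were spread far more widely than the WT libraries (3.50 ± 2.25 against 7.62 ± 0.43 FPKM, SD, n = 3). The log2 fold change of -1.06 was the lowest among the 15 tested members on this scale (the ratio of means was larger for Dhx57), yet with an SE of 0.36 it missed the threshold (adjusted p = 0.0663 in limma). When Lsm14b-KO replicate 1 was left out, the value was -1.43 and passed (adjusted p = 0.00454 in limma), the only alternative under which it did. It was -0.70 without Lsm14b-KO replicate 2 (adjusted p = 0.142 in limma) and -0.52 under TPM scaling (adjusted p = 0.193 in limma). Its relatives Dhx58 and Ddx60 were nearly absent, with means of 0.0720 and 0.0642 FPKM.

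Ddx28, which helps to assemble the mitochondrial ribosome, had 1.58, 1.93 and 1.68 FPKM in WT and 2.01, 5.10 and 2.24 FPKM in Lsm14b-KO libraries. The groups did not overlap, but Lsm14b-KO replicate 2 stood far above the rest, and the log2 fold change of 0.52 did not pass (SE 0.29, adjusted p = 0.211 in limma). It was 0.20 without that library (adjusted p = 0.520 in limma) and 1.04 under TPM scaling (adjusted p = 0.105 in limma). It overlaps Dus2 on the opposite strand, which was under 1 FPKM in all libraries. Of the 10 splicing and snRNP assembly helicases only Dhx15, which takes spliceosomes apart, was tested. It had 0.453, 0.477 and 0.528 FPKM in WT and 1.43, 0.745 and 1.34 FPKM in Lsm14b-KO libraries. All Lsm14b-KO values were above all WT values (log2 fold change 0.53, adjusted p = 0.0983 in limma). The others detected, such as Ddx46 (0.604 FPKM) and Ddx42 (0.360 FPKM), both parts of the branch-site machinery, had means under 1 FPKM. Ddx43, the germ cell member, was above 0 in a single library only.

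**Figure D3:**
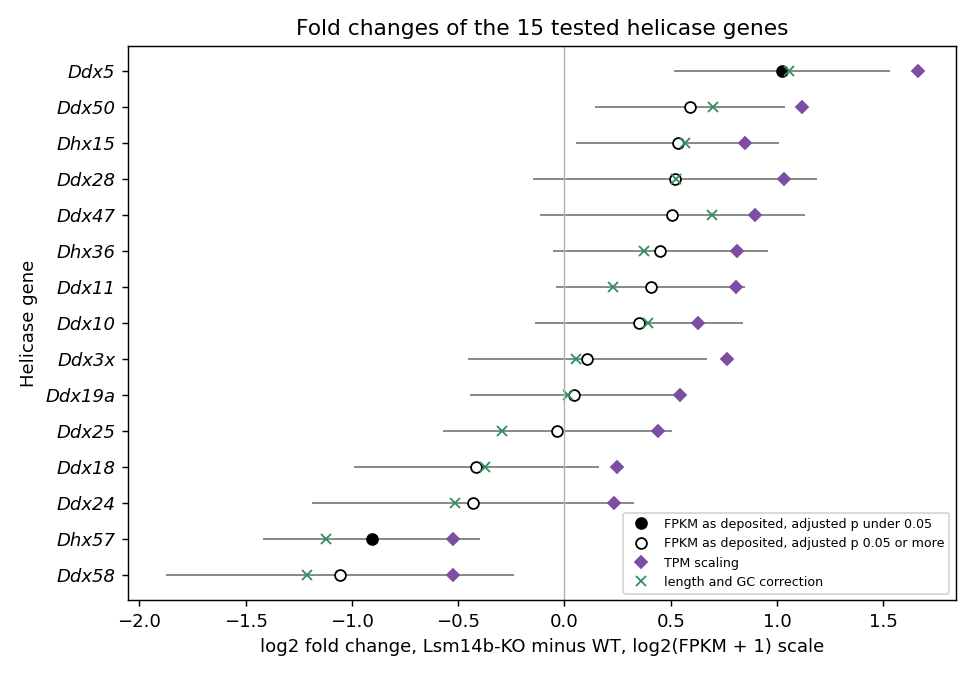
log2 fold change (Lsm14b-KO minus WT) of the 15 tested helicase genes, with circles for FPKM as deposited (filled where the adjusted p was under 0.05) and their 95% intervals as lines, diamonds for TPM scaling and crosses for the length and GC correction. Ddx5 (1.02) and Ddx58 (-1.06) lie at the ends, and under TPM scaling every gene lies further to the right, with Ddx18, Ddx24 and Ddx25 moved from below 0 to above it.

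The scaling of the libraries bears on these directions, because the summed FPKM differed between the groups. When each library was rescaled to the same total (TPM scaling), the median log2 fold change of all tested genes moved by 0.48, from -0.08 to 0.40. The split of calls over all genes moved with it, from 29.5% higher to 63.2% higher. Under TPM scaling 5 helicases passed, all higher (Ddx5, Ddx50, Ddx47, Dhx15 and Dhx36), where 20.6% of all tested genes were called and 13.0% were called higher. Quantile normalization, equal medians, and the correction for length and GC content moved the median of all genes by 0.14, 0.06 and 0.18, and 42.4%, 38.8% and 45.3% of calls were then higher. Relative to the median of all genes the members' median was 0.43 higher as deposited, and 0.37, 0.32, 0.43 and 0.12 higher under TPM scaling, quantile normalization, equal medians, and the length and GC correction. Ddx5 lay 0.95 to 1.26 above the median of all genes under all of these, and Dhx57 at -1.23 to -0.83 relative to it. The tested helicase transcripts were longer than most, with a median of 3128 nt against 2259 nt for all tested genes, and their part in the values was not tested beyond that correction.

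**Figure D4:**
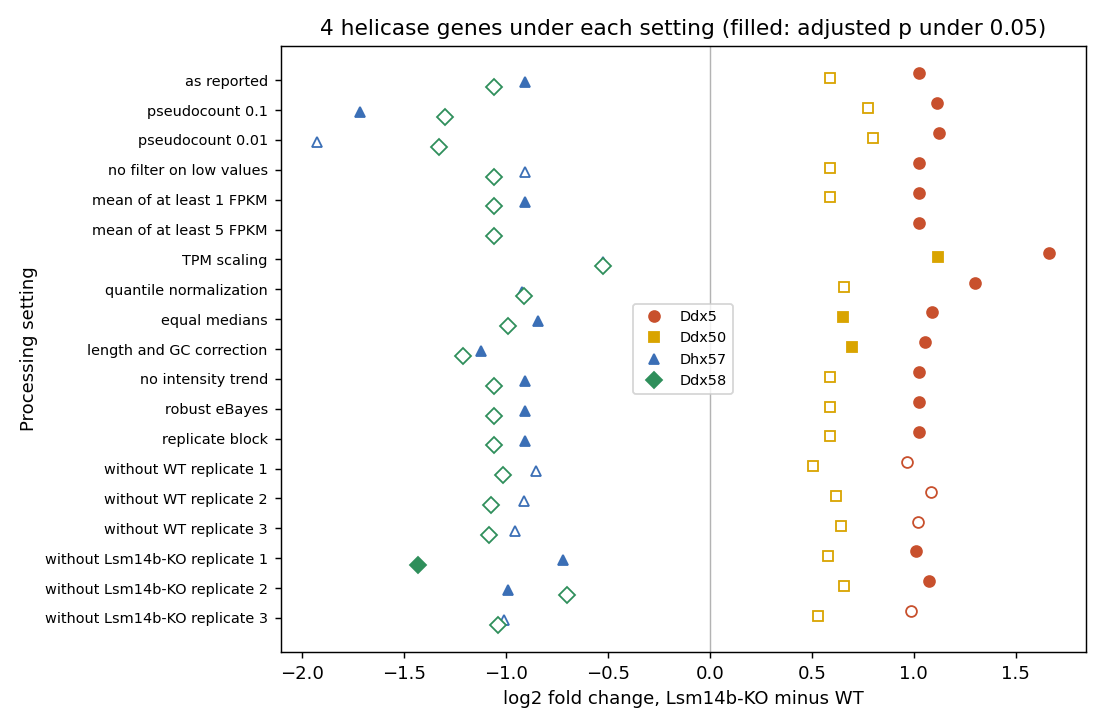
log2 fold change (Lsm14b-KO minus WT) of Ddx5, Ddx50, Dhx57 and Ddx58 as reported and under the 18 other settings for Ddx5 and Ddx58 and the 17 that could include Ddx50 and Dhx57, filled where limma's adjusted p was under 0.05. Ddx5 stays between 0.97 and 1.66 and Dhx57 between -1.93 and -0.52, and neither changes direction.

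Another 32 helicase genes were above 0 in at least 1 library but under 1 FPKM in all 6, and 14 of them were listed at 0 in 1 to 5 libraries. Here 4 (Ddx21, Ddx39b, Ddx42 and Dhx30) were higher and 2 (Ddx56 and Dhx40) were lower in Lsm14b-KO libraries without overlap, and 26 overlapped. Of all 7927 genes in the same range 14.9% did not overlap in either direction, and 10.9% were higher in Lsm14b-KO libraries without overlap. When no minimum was set, 47 members entered the fit and only Ddx5 passed, against 5.03% of 14325 genes. The lowest adjusted p of the 32 was 0.0844 (Dhx30), followed by 0.0874 (Ddx39b) and 0.0931 (Ddx21), all in limma. For 12 of them the values above 0 were close to whole multiples of a common step, which was taken as 1 fragment. Read this way, values above 0 rested on 1 to 14 fragments a library. Whether the step is a single fragment was not checked against transcript length. Dhx30, of the mitochondrial ribosome, corresponded to 0, 1 and 1 fragments in WT and 4, 5 and 6 in Lsm14b-KO libraries. Dhx9, a helicase of double-stranded RNA, corresponded to 1, 0 and 0 fragments in WT and 1, 2 and 5 in Lsm14b-KO libraries. The Lsm14b-KO libraries were also the deeper ones by the spacing of their smallest values, and the part of depth in these values was not tested.

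The way the Lsm14b-KO libraries differed among themselves was also described. Lsm14b-KO replicate 2 lay nearest to the WT mean in 8 of the 15 tested helicases, replicate 1 in 4 and replicate 3 in 3. Over all tested genes replicate 2 was nearest in 18.5%. Dhx15, Dhx36, Ddx47 and Ddx10 had their highest values in Lsm14b-KO replicate 1, the library otherwise most like WT.

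Other helicases and helicase cofactors without a Ddx or Dhx name numbered 61 in the table, and 30 were tested. Of these 8 (26.7%) passed in limma, 4 in each direction, beside 21.6% of all tested genes (6.38% higher and 15.2% lower). Patl2, which encodes an oocyte protein of stored mRNA complexes, rose by 1.42 on the log2 scale (adjusted p = 0.00624 in limma). Dicer1, of small RNA processing, and Eif4a1, of translation initiation, rose by 1.81 and 2.23 (adjusted p = 0.0496 and 0.0475 in limma). Dicer1 had 15.8, 17.2 and 24.2 FPKM in WT and 26.7, 122.2 and 96.4 FPKM in Lsm14b-KO libraries, and Eif4a1 had 1.26, 0.959 and 2.43 FPKM in WT and 2.59, 25.1 and 15.6 FPKM in Lsm14b-KO libraries. For both, Lsm14b-KO replicate 1 lay just above the highest WT library and the other two lay far above it. Eif4a1 has 3 near-identical copies and Rbm8a has 1. Lower were Pinx1 (-1.17), which carries a G-patch, a domain that activates DEAH-box helicases, Rbm8a (-1.18), Zfp830 (-1.23) and Smn1 (-1.78), a partner of the helicase Ddx20 in snRNP assembly. Their adjusted p in limma ran from 0.00637 to 0.0316. Smn1 had 22.6, 21.7 and 26.2 FPKM in WT and 14.3, 3.10 and 4.77 FPKM in Lsm14b-KO libraries. Its Lsm14b-KO replicate 1 again lay nearest to WT. The genotypes did not overlap in 20 of the 30 (66.7%), beside 45.0% of all tested genes.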

How the data were processed

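RNA-Seq of 6 libraries (3 WT, 3 Lsm14b-KO) was analysed, grouped by title and genotype label. Per the labels and the study's methods, RNA was amplified by Smart-seq2, and the authors aligned reads to mm10 with TopHat2 (2.0.13) and computed FPKM with Cufflinks (2.2.1). Cuffnorm and Cuffdiff are named among the authors' tools as well, and whether the deposited FPKM were rescaled between libraries was not tested. The annotation and strandedness are not given in the sources used here. Deposited values were 1 column of FPKM for each library, beside the authors' own fold change, p-value and q-value columns, which were not used.

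The scale was log2(FPKM + 1), and genes that reached 1 FPKM in any library were fitted with limma 3.58.1 (R 4.3.3, intensity trend, genotype as the only term, two-sided), after the fit was tested on simulated data. The pseudocount keeps low values from dominating. The helicases and gene lists were chosen with earlier results of these data known. Values per library are given for members with an adjusted p under 0.05 and for the 8 highest by mean FPKM. Other tested members are given by fold change, and further values (Ddx17, Ddx21, Ddx39b, Dhx15 and the fragment numbers) were chosen after they were seen. Gene positions, lengths, overlaps and copies (95% identity over 200 nt) came from GENCODE vM21. Coding sequence stood in for the protein motifs that had been planned, which were not analysed here. The alternatives were other pseudocounts, filters, scalings and limma settings, a replicate block, and leaving out each library. The values of 1 other gene past the threshold are not reported here.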

Additional observations from a re-analysis of the deposited data

How the results depend on the processing

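All 18 alternatives were run. Ddx5 stayed higher in Lsm14b-KO in all of them (log2 fold change 0.97 to 1.66) and Dhx57 stayed lower in the 17 that could include it (-1.93 to -0.52). Dhx57 missed the threshold at a pseudocount of 0.01 (adjusted p 0.0566 in limma), with no filter (0.0642) and under TPM scaling (0.211). The count of helicases past the threshold, 2 as reported, was 1 at a pseudocount of 0.01, with no filter and at a mean of at least 5 FPKM, with 0 lower in each, and 5 under TPM scaling, with 5 higher and 0 lower. Equal medians and the length and GC correction each gave 2 higher. Leaving out 1 library gave 0 to 3 in all (0 to 1 higher, 0 to 2 lower), 315 to 2898 of all genes and 3 to 14 of the other helicases and cofactors. The 2898 came without Lsm14b-KO replicate 1, and the 315 without Lsm14b-KO replicate 3. With no filter 720 genes and 4 of those others passed, and at a mean of at least 5 FPKM 862 and 5. Dropping a library leaves a group of 2.

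Over the tested helicases the median log2 fold change, 0.35, was 0.69 and 0.72 at pseudocounts of 0.1 and 0.01, 0.77 under TPM scaling and 0.23 under the length and GC correction. With other members counted, it was 0.081 with no filter, 0.11 at a mean of at least 1 FPKM and -0.42 at a mean of at least 5 FPKM, and it was 0.20 to 0.39 with 1 library left out. The WT share of the summed FPKM was 0.00713% over tested genes only. Small differences that had not passed the threshold turned direction in 4 genes. Ddx18 and Ddx24 were 0.25 and 0.23 under TPM scaling. Ddx25 was 0.44 under TPM scaling, 0.030 with equal medians, 0.15 without WT replicate 1 and 0.016 without Lsm14b-KO replicate 1 (-0.22 to 0.15 with 1 library left out). Ddx19a was -0.071 without WT replicate 3 and -0.04 without Lsm14b-KO replicate 3 (-0.071 to 0.16 with 1 library left out). The cause was not tested.

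Replicate numbers are shared by both genotypes, but the deviations of same-numbered libraries correlated at 0.19, -0.13 and 0.018, so the numbers were not taken to pair them. With a replicate block 2 helicases, 1244 genes of all tested and 8 of the other helicases and cofactors passed, and no call on a helicase changed. Low values limit most members, since 37 of the 52 never reached 1 FPKM.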
